A study of Mus musculus with 13 samples.

Results

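Chromatin accessibility at 8 genes known as markers of border macrophages or peripheral myeloid cells was followed peak by peak in microglia sorted from mice given LPS once or at both injections, with or without an episode of microglial depletion and repopulation. The genes were F13a1, Dab2, Runx3, Cd209a, Trem1, Ifitm6, Plac8 and Prtn3. Members were the peaks that the deposited annotation assigned to these genes at a distance of at most 50 kb from an annotated transcript start. This gave 25 of the 38620 peaks in the deposited table. Dab2 held 8 of them, Plac8 6, Runx3 4, Trem1 2, Prtn3 2, and F13a1, Cd209a and Ifitm6 1 each. All 25 passed the filter on low counts, which the libraries of a single group can meet. Dab2 at -10457 bp, Trem1 at the start site and Plac8 at -15479 and -25748 bp met it only through LPS libraries. Differences between LPS and PBS at these peaks are therefore not independent of the filter. A further 10 peaks of F13a1, Dab2 and Runx3 lay beyond the limit, with a Runx3 peak at 48761 bp just inside it and one at -50281 bp just outside. The outer peak had group means of 37.7 (PL) to 48.6 CPM (PBP), and the inner one, described below, of 12.7 (PBP) to 27.0 CPM (PBL).

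Microglia are the macrophages of the brain parenchyma. They share the skull with macrophages of the meninges, perivascular spaces and choroid plexus (border macrophages) and, in inflammation, with monocytes and neutrophils from the blood. F13a1 (the A chain of coagulation factor XIII) and Dab2 (a clathrin adaptor) are border macrophage markers. Runx3 (a Runt-domain transcription factor), Cd209a (a C-type lectin of monocyte-derived dendritic cells), Ifitm6 (an interferon-induced transmembrane protein of myeloid cells) and Plac8 (a small cysteine-rich protein) are known from monocytes and their descendants. Trem1, a receptor that amplifies inflammatory signalling, and Prtn3, the granule protease proteinase 3, are known from neutrophils and their precursors.

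All animals were male C57BL/6J mice, injected intraperitoneally at 10 weeks of age and again 5 weeks later, and collected 3 hours after the last injection at 15 weeks. LPS, the endotoxin of Gram-negative bacteria and a ligand of TLR4, was given at 1 mg/kg, and sham injections held PBS. From 1 week after the first injection, the mice received by gavage for 5 days either BLZ945 (an inhibitor of CSF1R, the receptor microglia need to survive) at 169 mg/kg per day or its cyclodextrin vehicle. In the group names, read from left to right in order of treatment, PBS is P, LPS is L and BLZ945 is B. PP (vehicle) and PBP (BLZ945) received PBS at both injections, PL (vehicle) and PBL (BLZ945) received PBS and then LPS, and LL (vehicle) and LBL (BLZ945) received LPS at both injections. PBL had 3 libraries and the other groups 2 each, 13 in all. Each library was a pool of 80000 cells, 40000 from each of 2 animals, gated as CD11b-high, CD45-intermediate and Ly6C-negative, a gate that keeps Ly6C-positive monocytes out. BLZ945 acts on CSF1R-dependent cells in the whole body, and the origin of the repopulating cells was not measured in these libraries.

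Libraries held between 927840 (PP 1_2) and 2772688 (PBL 4_5) rounded counts in peaks, with PP the shallowest group. PL 3_4 stood apart with the lowest share of counts in promoter peaks, 53.2% against 55.5% to 60.1% in the other 12 libraries. PP, PBP and PL were sorted on one instrument and PBL, LL and LBL on another. PP shared an isolation day with PL 3_4, and PBP with PL 1_2, and the LL, LBL and PBL pools came from 3 further days, 1 for each group. For PBL against PBP, LL against PP, LBL against PBP, LL against PL, PBL against PL, LBL against PBL and LBL against LL, treatment and isolation day therefore cannot be told apart. The same holds for both tests of a difference between the arms. The sorter differed as well in PBL against PBP, LL against PP, LBL against PBP, LL against PL and PBL against PL. PP and PBP also came from different days, linked only by PL 3_4 and PL 1_2. Levels below are CPM, the counts of a library scaled to a common total with TMM factors. A peak was called when edgeR's quasi-likelihood test gave a Benjamini-Hochberg adjusted p under 0.05 over all 37516 tested peaks. In bulk pools, more cells of a type and more accessible DNA per cell cannot be told apart.

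RefSeq promoter windows (GRCm38.p6, 250 bases before to 50 after the start site) were found for all 8 genes, 12 windows in all, and 3 of them overlapped a member peak. These are printed because they are the start sites at which the deposited data measured accessibility directly. Capitals mark TATAAA (the TATA box) and ACTTCC (the reverse complement of GGAAGT, an ETS core), both searched after the sequences had been seen.
Ifitm6, chr7:141016843-141017142, minus strand: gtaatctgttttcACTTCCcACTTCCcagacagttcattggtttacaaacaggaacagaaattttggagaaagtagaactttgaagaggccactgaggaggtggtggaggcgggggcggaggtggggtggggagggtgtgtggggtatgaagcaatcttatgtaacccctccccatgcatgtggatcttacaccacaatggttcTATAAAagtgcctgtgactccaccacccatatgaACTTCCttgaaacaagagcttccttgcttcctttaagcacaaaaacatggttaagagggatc
Dab2, chr15:6386498-6386797, plus strand: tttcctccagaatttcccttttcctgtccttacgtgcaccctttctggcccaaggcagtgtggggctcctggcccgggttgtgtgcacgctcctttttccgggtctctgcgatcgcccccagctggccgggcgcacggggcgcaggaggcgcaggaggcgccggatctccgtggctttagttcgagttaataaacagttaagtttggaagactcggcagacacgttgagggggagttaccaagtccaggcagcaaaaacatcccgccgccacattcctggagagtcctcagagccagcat
Trem1, chr17:48232489-48232788, plus strand: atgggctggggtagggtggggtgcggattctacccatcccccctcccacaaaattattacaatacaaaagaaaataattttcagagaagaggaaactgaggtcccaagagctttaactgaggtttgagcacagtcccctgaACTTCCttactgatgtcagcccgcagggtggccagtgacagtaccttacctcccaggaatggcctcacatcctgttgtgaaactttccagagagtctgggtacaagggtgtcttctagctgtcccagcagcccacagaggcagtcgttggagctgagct
The Ifitm6 and Dab2 windows lay wholly within their peaks, and 211 of the 300 bases of the Trem1 window did. Ifitm6 held TATAAA 46 bases upstream of its start and ACTTCC at 237, 230 and 12 bases upstream. Trem1 held ACTTCC 109 bases upstream, and Dab2 held neither. Among 32851 RefSeq windows of the same length, TATAAA or its reverse complement was in 13.6% and GGAAGT or its reverse complement in 23.8%. Of 6 motifs searched on both strands by their letters, the 3 windows held none. The motifs were GAGGAAGT (PU.1, which contains the ETS core), TGANTCA (AP-1), TGTGGTT (RUNX), TTGCNNAA (C/EBP), GGGNNTTTC (NF-kB) and GAAANNGAA (an interferon response element). They were present in 3.2%, 7.81%, 5.27%, 10.8%, 4.36% and 8.56% of all windows, in that order. A window without these letters says nothing of the factors themselves.

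Of the 25 peaks, 11 were annotated as distal intergenic, 9 as intronic, 4 as promoter and 1 as downstream of a gene. Among all tested peaks, 24.4% were distal intergenic, 31.3% intronic and 36.8% promoter peaks. Median width was 459 bp for the members and 439 bp for all peaks in the table. Peaks are named below by the gene and the deposited signed distance to the nearest annotated transcript start, which can be that of a short internal transcript. Coordinates are in GRCm38/mm10.

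Across the 6 groups, 14 of the 25 peaks differed (edgeR F test over the group means), where 16.6% of all tested peaks did, and DESeq2 called 6. The members were chosen with earlier results of these data known. Member counts and medians set beside those of all peaks therefore test no excess. The first exposure to LPS was compared with PBS in each arm. In mice without depletion (PL against PP), 3 member peaks rose, namely F13a1 at -6261 bp and Dab2 at -10457 and 41570 bp. This compares with 4.77% of all tested peaks that rose. Cd209a at -5380 bp fell, and 2.69% of all tested peaks did. Of these 4 calls DESeq2 made 2 (it gave no adjusted p for Dab2 at -10457 bp), while limma-trend called 9 members, and leaving out 1 library gave 2 to 7. In repopulated mice (PBL against PBP), 8 member peaks rose and none fell, while 6.74% of all tested peaks rose. These were Dab2 at -10457 and 40575 bp, Trem1 at the start site and at -1681 bp, Prtn3 at -1217 bp, Runx3 at 48761 bp, F13a1 at -6261 bp and Ifitm6 at the start site. Every library of the LPS group lay above every PBS library at 17 peaks in PL against PP (25.1% of all tested peaks) and at 16 in PBL against PBP (20% of all tested peaks). The median log2 fold change over the members was 0.62 and 0.41, beside 0.01 and -0.003 over all tested peaks. Among distal intergenic peaks alone, 1 of 11 members rose in PL against PP and 3 of 11 in PBL against PBP, beside 6.29% and 8.89% of all distal intergenic peaks.

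**Figure D1:**
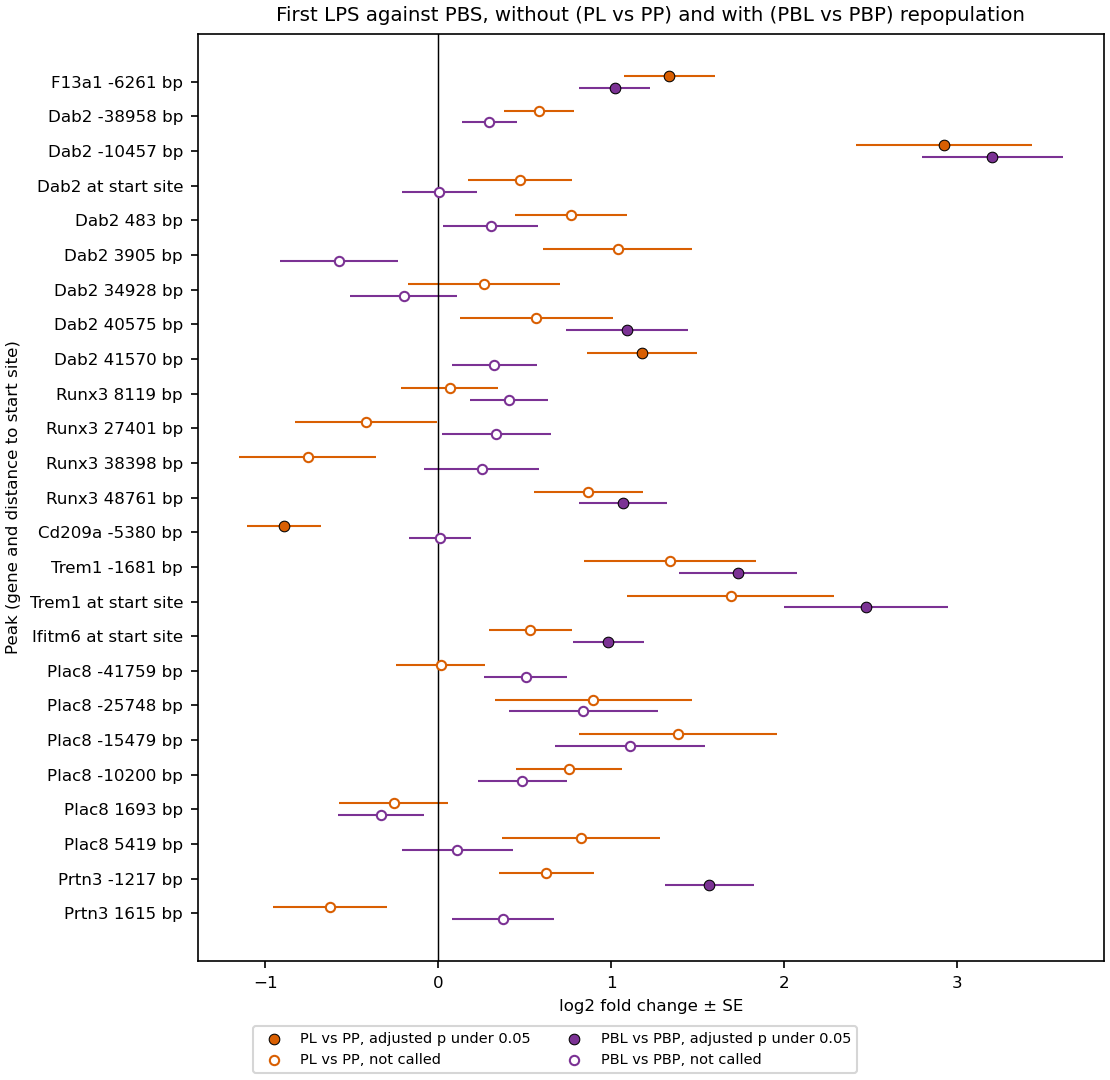
Log2 fold change (horizontal axis, bars are ± 1 SE) of each of the 25 peaks (vertical axis) after a first LPS injection, for PL against PP (orange) and PBL against PBP (purple), with filled dots where the adjusted p was under 0.05. Dab2 at -10457 bp lies farthest to the right in both comparisons, at 2.92 and 3.20, and Cd209a is the only filled dot left of 0.

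Dab2 at -10457 bp and F13a1 at -6261 bp were the only members called in all 4 comparisons of an LPS group with the PBS-only group of its arm. In PBL against PBP, Prtn3 at -1217 bp and both Trem1 peaks had larger folds than F13a1. The Dab2 peak at -10457 bp (chr15:6411323-6411783) lies in intron 1 of the long transcript, 24.8 kb downstream of the RefSeq start whose window is printed above. Its level was 2.10 and 2.99 CPM in PP and 3.05 and 1.51 CPM in PBP. After a first LPS injection it was 13.6 and 25.6 CPM in PL and 20.4, 23.1 and 22.7 CPM in PBL. After LPS at both injections it was 19.0 and 14.5 CPM in LL and 12.3 and 18.3 CPM in LBL. All 9 libraries from LPS-injected mice lay above all 4 PBS libraries, with no overlap. The peak was nearly closed without LPS, at 1.5 to 5 deposited counts per library, which limits the precision of the fold. It was 7.58-fold higher in PL than in PP (log2 fold change 2.92 ± 0.51, SE, edgeR adjusted p = 1.37e-05) and 9.20-fold higher in PBL than in PBP (3.20 ± 0.41, adjusted p = 3.00e-10). It was 6.30-fold higher in LL than in PP and 6.46-fold higher in LBL than in PBP (adjusted p = 0.000131 and 1.43e-05). The call held in all 4 of these comparisons without each library in turn.

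The F13a1 peak (chr13:37056505-37057114, distal intergenic, 6261 bp upstream of the start) is the 1 F13a1 peak within the limit. It had 17.9 and 18.0 CPM in PP, 20.7 and 24.1 in PBP, 37.9 and 52.2 in PL, 45.0, 42.6 and 47.7 in PBL, 50.9 and 49.9 in LL, and 52.0 and 60.9 in LBL. The LPS libraries again lay wholly above the PBS libraries. LBL had the highest mean and PP the lowest, and the means of PL and PBL were both 45.1 CPM. The peak was 2.52-fold higher in PL than in PP (log2 fold change 1.34 ± 0.26, SE, edgeR adjusted p = 0.000141) and 2.03-fold higher in PBL than in PBP (1.02 ± 0.20, adjusted p = 8.39e-05). LL was 2.80-fold above PP and LBL 2.55-fold above PBP (adjusted p = 6.45e-06 and 8.65e-07). PL 3_4, isolated on the same day as PP, had 52.2 CPM against 17.9 and 18.0. PL 1_2, isolated on the same day as PBP, had 37.9 CPM against 20.7 and 24.1.

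Of the other 7 Dab2 peaks, the one at -38958 bp (chr15:6259996-6260830, distal intergenic) also had all 9 LPS libraries above the 4 PBS libraries, though by a margin as small as 54.3 CPM (PBP 3_4) against 54.5 CPM (PL 1_2). Its log2 fold change was 0.58 ± 0.20 (SE) in PL against PP (edgeR adjusted p = 0.0555) and 0.30 ± 0.16 in PBL against PBP (adjusted p = 0.265), neither of them called. The start site peak, which holds the printed promoter, had a mean of 17.4 CPM in PP, 25.9 in PBP, 24.2 in PL, 24.8 in PBL, 25.5 in LL and 28.2 in LBL, and no test across 2 groups called it. Its log2 fold change was 0.47 ± 0.30 (SE) in PL against PP and 0.01 ± 0.22 in PBL against PBP. The peak at 41570 bp (chr15:6341438-6341812) was 12.6 and 14.0 CPM in PP and 20.2 and 39.4 in PL. It was called (log2 fold change 1.18 ± 0.32, SE, edgeR adjusted p = 0.00882), and the rise was carried mostly by PL 3_4. Without PL 3_4 the value was 0.58 and was not called, and it was 1.10 without PP 1_2, 1.23 without PP 3_4 and 1.15 with DESeq2 (adjusted p = 0.0833), also not called. In PBL against PBP the same peak was at 0.32 ± 0.25 and was not called. The neighbouring peak at 40575 bp (chr15:6340443-6340771) showed 7.32 and 4.53 CPM in PBP and 14.0, 15.7 and 10.3 in PBL. It was called (1.09 ± 0.35, adjusted p = 0.0284), and the call was lost without PBP 1_2 (1.49), PBP 3_4 (0.82), PBL 1_2 (1.06) or PBL 3_4 (0.93), and with DESeq2 (1.12, adjusted p = 0.257). The peak at 3905 bp was at 1.04 ± 0.43 in PL against PP and at -0.57 ± 0.34 in PBL against PBP, neither of them called. The test of that difference gave -1.61 ± 0.55 (adjusted p = 0.21), also not called.

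**Figure D2:**
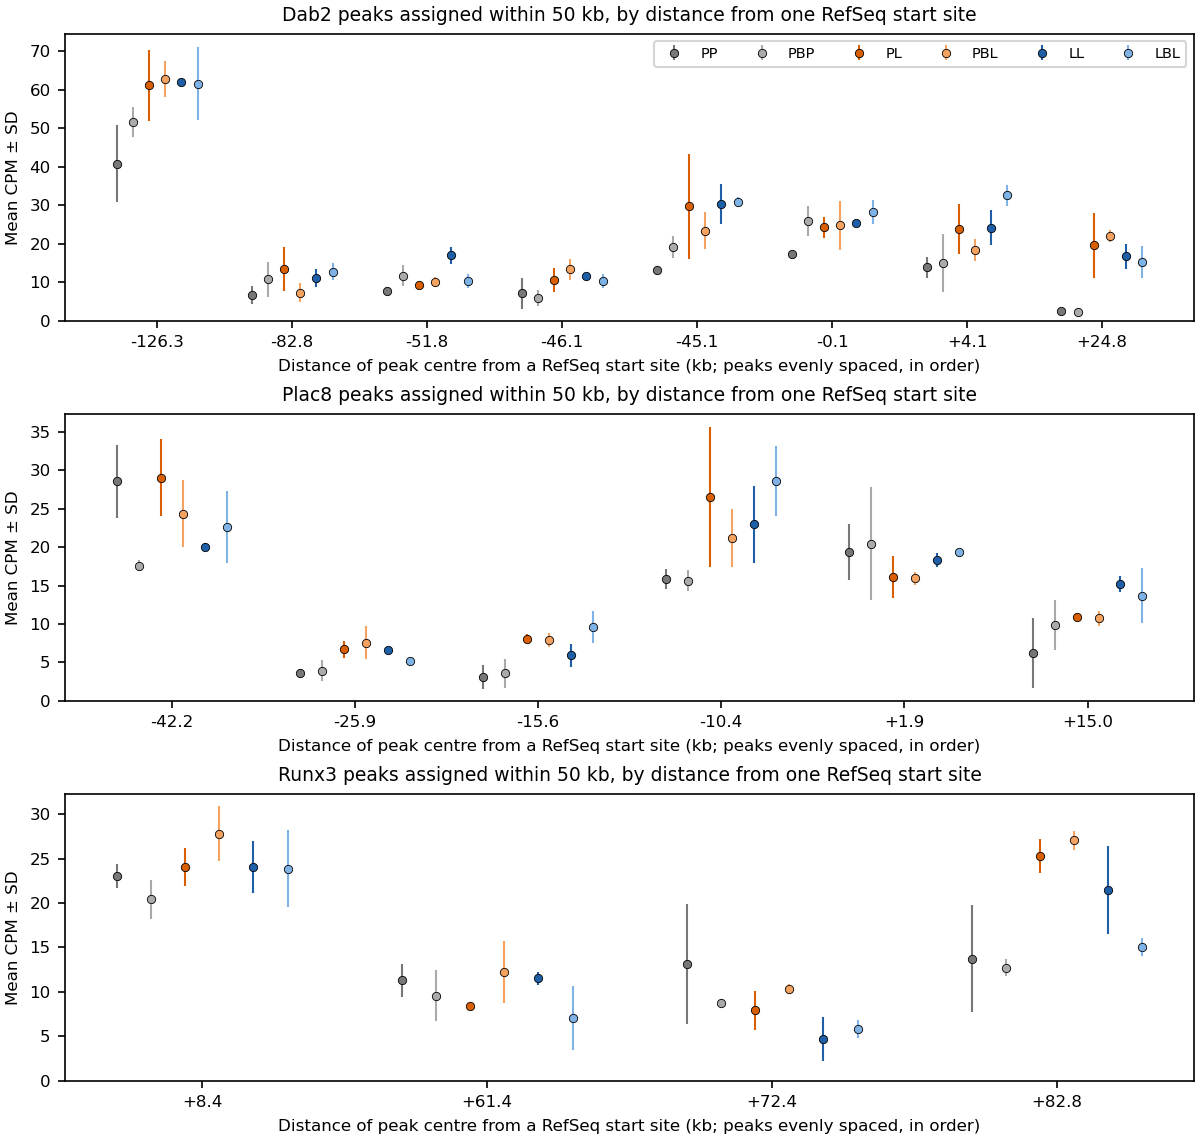
Mean accessibility (CPM, bars are ± 1 SD over 2 or 3 libraries) of the Dab2, Plac8 and Runx3 peaks in each of the 6 groups, with peaks in genomic order and labelled by the distance of their centre from 1 RefSeq start site of the gene (kb). The Dab2 peak at +24.8 kb is near 0 in PP and PBP and between 15.3 and 22.1 CPM in the other groups.

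Both Trem1 peaks had few counts without LPS. The start site peak (chr17:48232578-48232855) was 3.16 and 2.00 CPM in PP and 2.44 and 1.51 in PBP. It was 8.30 and 8.52 CPM in PL, 9.13, 13.0 and 11.7 in PBL, 12.0 and 7.65 in LL, and 8.45 and 12.2 in LBL. The lowest LPS library was above the highest PBS library. In PBL the peak was 5.55-fold above PBP (log2 fold change 2.47 ± 0.47, SE, edgeR adjusted p = 3.72e-05). In PL it was at 1.69 ± 0.60 against PP and did not pass the threshold (adjusted p = 0.0635). It was called in LL against PP (1.88 ± 0.57, adjusted p = 0.0268) and in LBL against PBP (2.34 ± 0.52, adjusted p = 0.00112). The LL call was lost without PP 1_2 (2.21), PP 3_4 (1.56) or LL 1_2 (1.54), and the LBL call without LBL 3_4 (2.01) and with DESeq2 (2.36, adjusted p = 0.0816). The upstream peak at -1681 bp (chr17:48230606-48231087) was 8.41 and 0.998 CPM in PP and 6.71 and 4.53 in PBP. It was 11.3 and 12.2 CPM in PL, 11.2, 20.4 and 22.7 in PBL, 11.0 and 12.5 in LL, and 9.75 and 11.2 in LBL. PBL 3_4 and PBL 4_5 were the highest of all libraries, and the names of these pools share the animal number 4. The peak was 3.32-fold higher in PBL than in PBP (1.73 ± 0.34, adjusted p = 5.91e-05), a call that held without each library in turn. It was not called in PL against PP (1.34 ± 0.50, adjusted p = 0.0784).

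The annotation placed a Prtn3 peak in intron 1 of a transcript not identified here. This peak, at -1217 bp (chr10:79877763-79878397), was centred 1.6 kb upstream of the RefSeq Prtn3 start. Its level was 17.9 and 22.0 CPM in PP, 8.54 and 13.6 in PBP, 27.9 and 33.6 in PL, 33.7, 31.0 and 32.3 in PBL, 33.9 and 37.0 in LL, and 35.7 and 31.5 in LBL. The groups given LPS were close together, and the PBS groups differed, with PBP below PP in every library. That baseline difference was -0.88 ± 0.35 (log2, SE) and was not called (edgeR adjusted p = 0.35, unadjusted p = 0.013). Against these baselines the peak was 2.96-fold higher in PBL than in PBP (1.57 ± 0.26, adjusted p = 1.16e-06), and 0.62 ± 0.27 on the log2 scale in PL against PP (adjusted p = 0.156, not called). The test of the difference between the arms gave 0.94 ± 0.40 (adjusted p = 0.332). The peak was also called in LBL against PBP (1.62 ± 0.28, adjusted p = 7.68e-06) and in LL against PP (0.83 ± 0.26, adjusted p = 0.0342). The LL call was lost without any 1 of its 4 libraries (0.68 to 0.97) and with DESeq2 (0.81, adjusted p = 0.198).

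Ifitm6 had 1 peak, over its start site (chr7:141016563-141017493). It was 26.3 and 27.9 CPM in PP, 21.4 and 21.9 in PBP, 40.9 and 37.8 in PL, 40.0, 45.3 and 42.2 in PBL, 45.9 and 41.8 in LL, and 36.4 and 44.7 in LBL. All LPS libraries exceeded all PBS libraries. The peak was 1.98-fold higher in PBL than in PBP (log2 fold change 0.98 ± 0.21, SE, edgeR adjusted p = 0.000188) and 1.89-fold higher in LBL than in PBP (0.92 ± 0.23, adjusted p = 0.00401). The LBL call was lost without PBP 1_2 (0.89) or LBL 3_4 (0.74), and with DESeq2 (0.91, adjusted p = 0.0755). In the vehicle arm neither PL (0.53 ± 0.24, adjusted p = 0.172) nor LL (0.69 ± 0.23, adjusted p = 0.053) was called against PP.

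**Figure D3:**
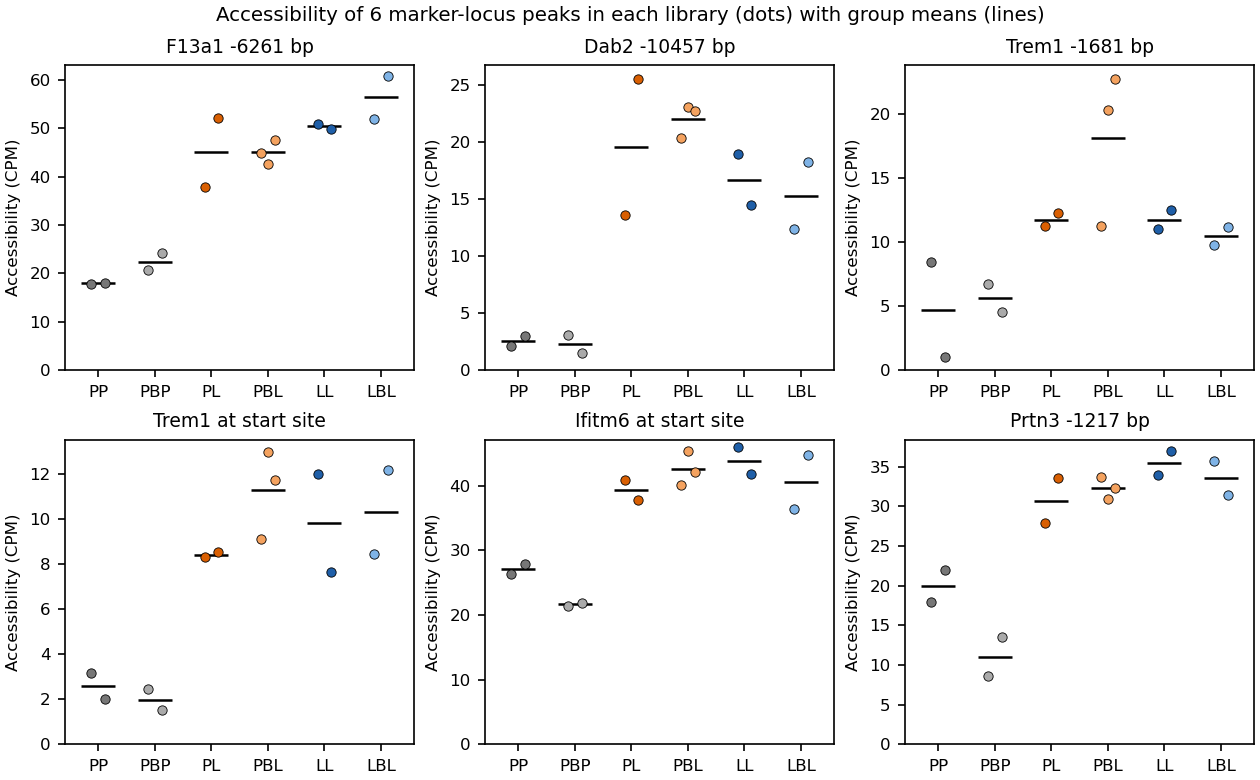
Accessibility (CPM, vertical axis from 0) of the 6 member peaks with the smallest p in PBL against PBP, in each of the 13 libraries (dots) by group (horizontal axis), with group means as lines. In all 6 panels the dots of PL, PBL, LL and LBL lie above those of PP and PBP. Choosing panels by p in PBL against PBP favours PBL above PBP. The share of all tested peaks with this separation was not computed.

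Cd209a fell in the vehicle arm. Its 1 peak (chr8:3754364-3754738, distal intergenic) had 55.7 and 57.9 CPM in PP, 41.5 and 37.7 in PBP, 33.8 and 27.7 in PL, 45.7, 35.6 and 40.3 in PBL, 38.4 and 31.4 in LL, and 31.8 and 28.4 in LBL. The PP libraries were the 2 highest and stood above all others. PL was 1.85-fold below PP (log2 fold change -0.89 ± 0.21, SE, edgeR adjusted p = 0.00284), a call lost without PP 3_4 (-0.89, adjusted p = 0.055) or PL 3_4 (-0.76, adjusted p = 0.076). LL was 1.64-fold below PP (-0.71 ± 0.20, adjusted p = 0.0166), a call lost without PP 1_2 (-0.75), PP 3_4 (-0.71) or LL 3_4 (-0.58), and with DESeq2 (-0.73, adjusted p = 0.103). In the repopulated arm PBL and PBP overlapped (0.01 ± 0.18, adjusted p = 0.985). The difference between the arms was 0.90 ± 0.28 and was not called (adjusted p = 0.164). PBP itself was 0.51 ± 0.21 below PP on the log2 scale, which was not called (adjusted p = 0.37).

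Of the 4 Runx3 peaks, 1 was called after a first LPS injection. The peak at 48761 bp (chr4:135203197-135203671, distal intergenic) had 9.47 and 18.0 CPM in PP, 13.4 and 12.1 in PBP, 26.7 and 24.0 in PL, 28.1, 25.9 and 27.1 in PBL, 18.0 and 24.9 in LL, and 14.3 and 15.7 in LBL. PBL was 2.10-fold above PBP (log2 fold change 1.07 ± 0.26, SE, edgeR adjusted p = 0.00143), a call that narrowly missed the threshold without PBP 3_4 (0.99, adjusted p = 0.0504) and with DESeq2 (1.07, adjusted p = 0.052). PL against PP was 0.87 ± 0.31 (adjusted p = 0.0706). LBL was back near PBP (0.24 ± 0.32, adjusted p = 0.779). The peak at 38398 bp (chr4:135192834-135193216) was 8.41 and 18.0 CPM in PP and 2.99 and 6.44 in LL, and it was called as 2.69-fold lower in LL than in PP (-1.43 ± 0.42, adjusted p = 0.022). Without PP 3_4 the value was -0.80, and without LL 1_2 it was -1.06, both not called. The peaks at 8119 bp, in intron 1, and at 27401 bp were called in none of the comparisons.

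The 6 Plac8 peaks gave no call after a first LPS injection in either arm. The largest values were at -15479 bp (chr5:100587724-100587946), with 4.21 and 2.00 CPM in PP, 4.88 and 2.26 in PBP, 7.71 and 8.52 in PL, and 7.02, 7.86 and 8.80 in PBL. The groups did not overlap in either arm, but with 1.5 to 7.5 deposited counts in the PBS libraries the log2 fold changes of 1.38 ± 0.57 and 1.11 ± 0.43 (SE) were not called by edgeR (adjusted p = 0.127 and 0.0893). After LPS at both injections, the peak at 5419 bp (chr5:100556981-100557439, intron 3) was 16.0 and 14.5 CPM in LL against 9.47 and 2.99 in PP (1.29 ± 0.41, adjusted p = 0.0392). That call was lost without PP 3_4 (0.65), LL 1_2 (1.21) or LL 3_4 (1.35). The peak at -10200 bp (chr5:100582445-100582829) was 31.8 and 25.4 CPM in LBL against 14.6 and 16.6 in PBP (0.86 ± 0.27, adjusted p = 0.0393), a call lost without any 1 of the 4 libraries (0.70 to 1.02) and with DESeq2 (0.86, adjusted p = 0.364). The peaks at -41759, -25748 and 1693 bp were called in none of the comparisons.

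LPS at both injections was compared with LPS at the last injection only, the comparison that asks whether an earlier exposure alters the later response. In mice without depletion (LL against PL), no member peak was called, and 0.064% of all tested peaks were. At an unadjusted p under 0.05 there were 2, Plac8 at -41759 bp (-0.53 ± 0.23) and Dab2 at 34928 bp (0.88 ± 0.29, log2 fold change ± SE), and DESeq2 and limma-trend called none either. The share of all tested peaks at that unadjusted threshold was not computed. In repopulated mice (LBL against PBL), 1 peak rose and 1 fell, beside 0.973% and 0.928% of all tested peaks. Dab2 at 483 bp (chr15:6390603-6391071, 4.1 kb downstream of the RefSeq start) rose from 19.7, 20.4 and 15.0 CPM in PBL to 30.5 and 34.5 in LBL (0.86 ± 0.21, edgeR adjusted p = 0.0121). Its other levels were 15.8 and 12.0 CPM in PP, 9.76 and 20.4 in PBP, 28.5 and 19.2 in PL, and 27.5 and 20.9 in LL. Runx3 at 48761 bp fell 1.78-fold (-0.83 ± 0.23, adjusted p = 0.033), from 28.1, 25.9 and 27.1 CPM in PBL to 14.3 and 15.7 in LBL. The Dab2 call was lost without PBL 4_5 (0.70), LBL 1_2 (0.94) or LBL 3_4 (0.77). The Runx3 call was lost without each of the 5 libraries in turn (-0.91 to -0.77). DESeq2 and limma-trend called neither peak.

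Of the peaks called higher after a first LPS injection, Runx3 at 48761 bp was called lower in LBL against PBL, as given above. The other peaks that rose were called neither in LL against PL nor in LBL against PBL. Dab2 at -10457 bp had a log2 fold change of -0.27 ± 0.26 (SE) in LL against PL and -0.51 ± 0.24 in LBL against PBL. F13a1 had 0.15 ± 0.17 and 0.33 ± 0.16, Trem1 at the start site 0.19 ± 0.34 and -0.13 ± 0.29, Ifitm6 0.15 ± 0.18 and -0.06 ± 0.17, and Prtn3 at -1217 bp 0.21 ± 0.20 and 0.05 ± 0.19. Trem1 at -1681 bp had 0.002 ± 0.31 in LL against PL. In LBL against PBL it had -0.86 ± 0.27 (edgeR adjusted p = 0.0729, not called), with both LBL libraries below all PBL libraries.

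**Figure D4:**
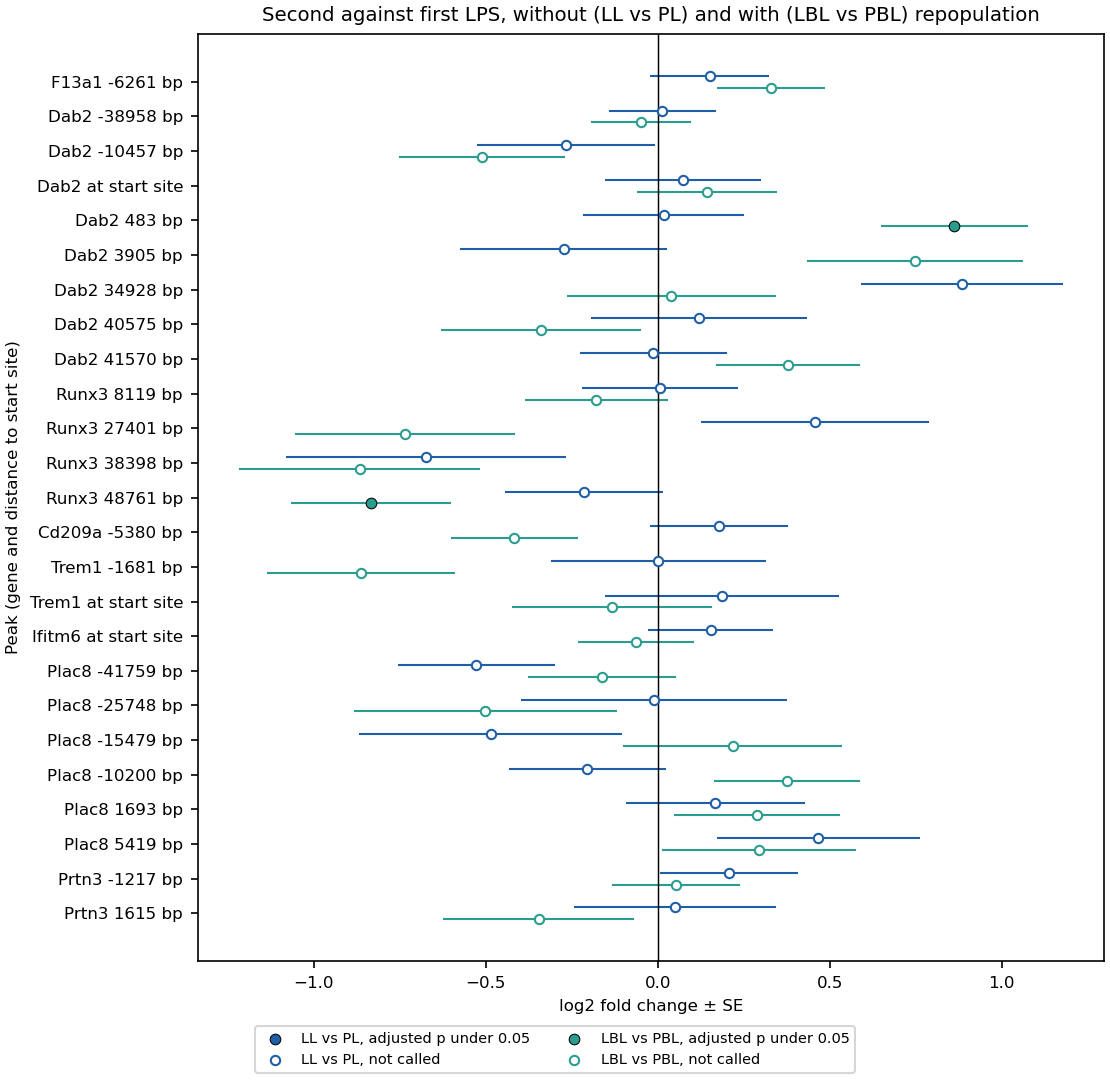
Log2 fold change (horizontal axis, bars are ± 1 SE) of each of the 25 peaks (vertical axis) after LPS at both injections against LPS at the last one only, for LL against PL (blue) and LBL against PBL (green), with filled dots where the adjusted p was under 0.05. No LL against PL dot is filled, and the filled LBL against PBL dots are Dab2 at 483 bp (0.86) and Runx3 at 48761 bp (-0.83).

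Mice given LPS at both injections were also compared with the PBS-only group of their arm. These comparisons share the PP or PBP libraries with those of the first LPS injection. In LL against PP, 8 member peaks rose (4.13% of all tested peaks rose) and 2 fell (2% of all tested peaks fell). In LBL against PBP, 7 rose (3.94% of all tested peaks rose) and none fell. These 10 and 7 calls depended on the tool and on single libraries, since DESeq2 made 1 and 3 and leaving out 1 library gave 2 to 5 and 3 to 6. DESeq2 gave no adjusted p for some of the low peaks, and limma-trend called 12 members in LL against PP and 8 in LBL against PBP. F13a1, Dab2 at -10457 bp, Trem1 at the start site and Prtn3 at -1217 bp were among those that rose in each. Dab2 at -38958 bp (0.60 ± 0.20, log2 fold change ± SE), 34928 bp (1.15 ± 0.37) and 41570 bp (1.16 ± 0.31) were called in LL against PP. The first of these and 34928 bp lost their call without any 1 of the 4 libraries (0.36 to 0.85 and 0.99 to 1.28), and 41570 bp without PP 1_2 (1.09), PP 3_4 (1.22) or LL 1_2 (0.98). With DESeq2, the peaks at -38958 bp (0.58, adjusted p = 0.222) and 41570 bp (1.16, adjusted p = 0.105) were not called. With DESeq2's size factors or library size alone in edgeR, those at -38958 bp (0.57 and 0.56) and 34928 bp (1.13 and 1.12) were not, and without the filter on low counts the one at -38958 bp was not (0.59, adjusted p = 0.0507). Dab2 at 483 bp was called in LBL against PBP (1.17 ± 0.27), but not without PBP 1_2 (0.67) or LBL 3_4 (1.06), and not with DESeq2 (1.13, adjusted p = 0.106).

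Repopulation without LPS (PBP against PP) gave no member call, and 0.16% of all tested peaks were called. DESeq2 and limma-trend gave none, and 4 peaks had an unadjusted p under 0.05 with edgeR, Prtn3 at -1217 and 1615 bp, Cd209a and Plac8 at -41759 bp, all lower in PBP. Repopulated and non-depleted mice did not differ by a called member peak after a first LPS injection (PBL against PL, 0.0826% of all tested peaks) or after LPS at both injections (LBL against LL, 0.0506%). There were 3 member peaks at an unadjusted p under 0.05 in each, and DESeq2 and limma-trend called none. The direct test of whether the response to a first LPS injection differed between the arms called no member (0.0746% of all tested peaks), with 5 at an unadjusted p under 0.05. The test of whether the effect of the earlier LPS differed between the arms called no peak at all (0%), and 6 members had an unadjusted p under 0.05. DESeq2 and limma-trend called no member in either. The share of all tested peaks at an unadjusted p under 0.05 was not computed. The unadjusted counts above therefore show neither an excess among the members nor its absence. Leaving out PL 1_2 gave more calls in PBL against PL, in the difference of the first response and in PL against PP. This held over all tested peaks as well as among members. Leaving out PL 3_4 gave fewer calls over all tested peaks in the same comparisons. Either fit leaves 1 PL library. The differences in calls between the arms after a first LPS injection are therefore not differences shown by a test.

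Summed over the peaks of a gene within 50 kb, F13a1, Dab2 and Trem1 rose and Cd209a fell in PL against PP, beside 6.54% and 4.07% of 13734 tested loci. In PBL against PBP, F13a1, Dab2, Runx3, Ifitm6, Trem1 and Prtn3 rose, beside 5.15% of loci that rose and 2.32% that fell. The Dab2 sum was 109.7 ± 9.33 CPM (SD, n = 2) in PP, 143 ± 13.9 in PBP (n = 2), 192 ± 30.7 in PL (n = 2), 182 ± 6.99 in PBL (n = 3), 198 ± 8.13 in LL (n = 2) and 203 ± 7.36 in LBL (n = 2). The spread of the PL libraries covered the means of the other LPS groups, and both PBP libraries lay above both PP libraries. The Plac8 sum ranged from 70.9 ± 3.19 CPM in PBP to 99.1 ± 15.6 in LBL (SD, n = 2 each) and was called in neither comparison. The Runx3 sum was 51.2 ± 5.24 CPM in PBP (n = 2), 77.4 ± 4.46 in PBL (n = 3) and 52.2 ± 7.67 in LBL (n = 2). It was the 1 member sum called in LBL against PBL (log2 fold change -0.51 ± 0.14, SE, edgeR adjusted p = 0.0404), where 1.21% of loci were called. None was called in LL against PL (0.0437% of loci).

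Other markers of the same cell types were read beside the members. Of 22 further border macrophage genes, 12 had a tested locus, and 10 had no peak within 50 kb, among them the defining genes Lyve1, Pf4 and Timd4. The 12 included Mrc1, Cd163, Cbr2, Ms4a7, Siglec1 and Folr2, none of them called in PL against PP or PBL against PBP. The median log2 fold change over the 12 was 0.02 and 0.04 in these comparisons. Of the 12, 2 rose in PL against PP, Cd36 (a scavenger receptor, 2.09-fold) and Stab1 (1.40-fold), and Cd36 rose in PBL against PBP (1.76-fold). Their summed level was 678 to 744 CPM in PP, 740.2 to 792 in PBP, 721 to 741 in PL, 782 to 842 in PBL, 763 to 768 in LL and 889 to 898 in LBL. Of 21 further monocyte genes, 12 were measured, and Ly6c2, Chil3 and Fn1 were among the 9 without a peak. Ccr2, Vcan and Lyz2 were measured and called in neither PL against PP nor PBL against PBP. Emilin2 (1.72-fold and 1.47-fold) and Cd300e (1.49-fold and 2.22-fold) rose in PL against PP and in PBL against PBP, and the summed level was 591 to 609 CPM in PP, 589 to 606 in PBP, 625 to 681 in PL, 665 to 696 in PBL, 664 to 677 in LL and 678 to 713 in LBL. Of 19 further neutrophil genes, 8 were measured and none was called in either comparison. S100a8, Ly6g, Mpo and Elane were among the 11 with no peak. The summed neutrophil level was 277 to 279.8 CPM in PP, 269 to 287 in PBP, 230.0 to 265 in PL, 241 to 259 in PBL, 257 to 261 in LL and 255 to 284 in LBL. The part of other cells in the member results was not tested beyond these levels.

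Markers of the other cell types of the brain were read in the same way, as sums that grow with the number of loci measured. Of 20 microglia identity genes, 18 had a tested locus, and their summed level was 3230 to 3284 CPM in PP, 3456 to 3637 in PBP, 2982 to 3093 in PL, 2926 to 3013 in PBL, 3272 to 3378 in LL and 3279 to 3374 in LBL. In PL against PP, 2 of the 18 rose and 4 fell, and in PBL against PBP 8 fell. Siglech, a microglial lectin receptor, was 1.80-fold lower in PL than in PP and 2.24-fold lower in PBL than in PBP. Mertk, a receptor for apoptotic cells, was 1.72-fold lower in PL than in PP and 1.39-fold higher in LL than in PL and in LBL than in PBL. Gpr34 was 2.93-fold lower in PBL than in PBP, and Mef2c (1.27-fold) and P2ry13 (1.35-fold) rose in PL against PP. Of 10 endothelial and mural genes, 6 were measured, with a summed level of 279 to 349 CPM in PP, 292 to 311 in PBP, 365 to 438 in PL, 340.3 to 398 in PBL, 361 to 375 in LL and 365 to 371 in LBL. The highest PP library lay above the lowest PBL library, and the other LPS groups lay above both PBS groups. Flt1 (1.60-fold) and Kdr (1.39-fold) rose in PL against PP and Flt1 (1.86-fold) and Cldn5 (1.82-fold) in PBL against PBP. Cldn5 fell 2.19-fold in LBL against PBL. None of 6 lymphocyte genes measured, with group ranges between 300.2 and 367 CPM, was called after a first LPS injection. Cd3e and Cd79a were among the 10 lymphocyte genes without a peak. Nor was either of 2 astrocyte genes, which summed to 235 to 302 CPM, and Gfap and Aqp4 had no peak. Of 3 neuronal genes, which summed to 71.5 to 74.9 CPM in PP, 49.1 to 55.1 in PBP and 32.5 to 49.5 in the LPS groups, Rbfox3 was 1.95-fold lower in PL than in PP. Of 6 oligodendrocyte genes, which summed to 372 to 433 CPM, Opalin was 1.66-fold lower in PBL than in PBP, and Sox10 had no peak. Per locus, PP held 181 CPM for microglia genes, 130 for astrocyte, 66.4 for oligodendrocyte, 59.2 for border macrophage, 52.8 for lymphocyte, 52.3 for endothelial and mural, 50.02 for monocyte, 34.8 for neutrophil and 24.4 for neuronal genes. The part of these cells in the member results was not tested.

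Likeness of pattern was described by Pearson's r of log2 CPM between locus sums over the 13 libraries, which share the 6 groups, so that r reflects the group differences. The 3 loci most like F13a1 were Gpr65 (r = 0.976), Rbpj (0.974) and Il15ra (0.972). Those most like Dab2 were Eloc (0.986), Tbc1d2b (0.979) and Jak1 (0.979). Trem1 was closest to Id1, Cxcl11 and Stfa3 (0.945 to 0.947), Ifitm6 to Vmp1, Fosl2 and Sema6b (0.963 to 0.968), and Prtn3 to Mir34a, Zmynd8 and Gm13056 (0.915 to 0.936). Cd209a was closest to 1700031P21Rik, Map2k2 and Zfp472 (0.926 to 0.947), and Plac8 to Mttp, Gphb5 and Soat2 (0.921 to 0.932). Runx3 had the lowest values, for Ehd1, Cfap54 and Mall (0.865 to 0.880).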

How the data were processed

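ATAC-seq, in which a transposase inserts adapters into open chromatin, was run on 13 pools of sorted microglia. The authors deposited 1 table of expected or estimated counts, in steps of 0.5 and not normalized, for 38620 peaks common to all libraries, annotated in GRCm38/mm10 per the file headers and the submitters' processing notes. These notes list, in no stated order, the peak caller MACS2 2.1.1, the annotation tools ChIPseeker 1.38 and HOMER 4.9.1, the aligner Bowtie2 2.2.6 and the trimmer cutadapt 1.9.1, and also Picard 1.126, SAMtools 1.7, deepTools 3.3.0 and bedtools 2.26. The counting tool, the settings and any shift of read ends for the transposase are not given in the sources used here.

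Rounded counts were fitted with edgeR 4.0.16 under R 4.3.3 (TMM factors, filterByExpr at a minimum count of 10, 37516 peaks kept, robust quasi-likelihood fit of 6 group means over 13 libraries, two-sided F tests, Benjamini-Hochberg adjustment over all tested peaks). The SE is the absolute log2 fold change divided by the square root of F. Depth was 927840 to 2772688 rounded counts. Locus sums added the peaks of a gene within 50 kb, and 13734 loci were fitted in the same way, with CPM set on locus totals for their tests. Replicates are pools, so p-values measure the spread between pools. PBL 3_4 and PBL 4_5 may share an animal and were kept apart. Deviations from the group mean of same-numbered libraries correlated at r over 0.1 in 2 of 30 pairs, both of them PL with PBL. In groups of 2 the deviations mirror each other, so the pairs are not independent and cannot exclude pairing. The numbers were taken not to pair the libraries.

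The named genes are every member peak, up to 2 called loci with the smallest p in each direction of every other marker list in 4 comparisons (PL against PP, PBL against PBP, LL against PL, LBL against PBL), and the 3 loci most correlated with each member. Members and lists were chosen with earlier results of these data known. Scripts were tested on simulated data. Alternatives were DESeq2 1.42.0, limma-trend (limma 3.58.1), other scaling factors, no filter, a replicate block, isolation day as a term, distance limits of 10 kb or none, and leaving out each library.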

Additional observations from a re-analysis of the deposited data

Results flagged for a closer look

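At 3 member peaks the libraries of the vehicle arm and of the repopulated arm moved in opposite directions under the same contrast, without overlap between the groups compared. Prtn3 at 1615 bp had a log2 fold change of -0.63 in PL against PP and of 0.38 in PBL against PBP, and the direct test of that difference was not called (1.00 ± 0.44, SE, edgeR adjusted p = 0.355). Runx3 at 27401 bp had 0.46 in LL against PL and -0.73 in LBL against PBL, and the difference was not called (-1.19 ± 0.46, adjusted p = 0.623). Plac8 at -41759 bp had -0.51 in LL against PP and 0.34 in LBL against PBP, a difference that was not tested. None of these 6 values was itself called. Each contrast gave 1 such peak among the 25 members, beside 3.97%, 3.51% and 5.32% of all 37516 tested peaks that moved in opposite directions without overlap in the same 3 pairs of comparisons, in the order given.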

How the results depend on the processing

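Of 31 called changes at member peaks, 17 lost their call in no alternative fit of all libraries that gave an adjusted p. These fits were both other tools, both other scalings, no filter on low counts, the replicate block and, for PL against PP, isolation day as a term. Of the 17, 13 also kept the call without each library in turn, and none of the 31 reversed. The other distance limits were applied only to the counts of calls. The 13 were F13a1 at -6261 bp and Dab2 at -10457 bp in 4 comparisons each (PL and LL against PP, PBL and LBL against PBP), Trem1 at the start site and at -1681 bp, Ifitm6 and Prtn3 at -1217 bp in PBL against PBP, and Prtn3 at -1217 bp in LBL against PBP. DESeq2 gave no adjusted p for some low peaks, and these are not counted as lost. Among the 17 calls they were Dab2 at -10457 bp in both comparisons with PP, and Trem1 at the start site, Runx3 at 38398 bp and Plac8 at 5419 bp in LL against PP. DESeq2 called 2 members in PL against PP (4 in the main analysis), 0 in LBL against PBL (2), 1 in LL against PP (10), 3 in LBL against PBP (7) and 6 across the 6 groups (14). limma-trend called 9 in PL against PP, 0 in LBL against PBL, 12 in LL against PP, 8 in LBL against PBP and 15 across the 6 groups. Isolation day as a term gave 7 in PL against PP, as did leaving out PL 1_2, since 1 of the 2 PL libraries (PL 3_4) shares its day with PP. A limit of 10 kb, which leaves fewer peaks, gave 2 in PL against PP, 5 in PBL against PBP, 1 in LBL against PBL, 5 in LL against PP and 7 across the groups. The replicate numbers were taken not to pair the samples. With the replicate block, 0 members were called in LBL against PBL, 5 in PL against PP, 8 in PBL against PBP and 11 in LL against PP. Leaving out each library in turn gave 2 to 7 calls in PL against PP, 6 to 8 in PBL against PBP, 0 to 2 in LBL against PBL, 2 to 5 in LL against PP, 3 to 6 in LBL against PBP, 9 to 16 across the groups, 0 to 2 in PBL against PL and in the difference of the first response, and 0 in the other comparisons. Apart from the smaller sets of peaks or libraries, the cause was not tested. At the lowest peaks, such as Dab2 at -10457 bp with 1.5 to 5 deposited counts in each PBS library, depth limits the precision of the fold.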

Other observations

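Of the 10 peaks of F13a1, Dab2 and Runx3 beyond 50 kb, 2 were called in PBL against PBP, Dab2 at -218057 bp (16.8 against 8.11 CPM, log2 fold change 1.00, edgeR adjusted p = 0.0244) and Runx3 at -66626 bp (11.8 against 4.70 CPM, 1.28, adjusted p = 0.0153), and none in PL against PP. Among all tested peaks, 6.74% rose in PBL against PBP. The peaks just outside the distance limit, Runx3 at -50281 and 51706 bp and F13a1 at -54750 bp, were called in none of the comparisons.

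Cd36 was the 1 further border macrophage locus called between the arms. It was 1.83-fold higher in PBL than in PL (edgeR adjusted p = 0.00102) and 2.87-fold higher in LBL than in LL (adjusted p = 1.26e-08). Of all tested loci, 0.342% and 0.0947% were called in these comparisons. Cd36 was also higher in repopulated mice without LPS, with a mean of 20.7 CPM in PP and 44.6 CPM in PBP (on locus totals). That comparison was not called.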
